A study of Rattus norvegicus with 8 samples.

Results

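The insulin-like growth factor (IGF) system was followed at the level of messenger RNA in rat hippocampal neuronal cultures treated with a PAM, a positive allosteric modulator acting on the NMDA receptor, or with vehicle. The genes described are the ligands Igf1 and Igf2, the receptor Igf1r, the binding proteins Igfbp2, Igfbp3, Igfbp4, Igfbp5, Igfbp6 and Igfbp7, and the binding protein-like gene Igfbpl1. These 10 genes, of 32623 annotated in the count tables, were chosen by symbol from the authors' deposited table of the PAM against vehicle comparison, with earlier results of that comparison known. Their differences between PAM and vehicle are therefore given as a description, with no p-value.

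A PAM strengthens the response of the NMDA receptor, a glutamate-gated cation channel of excitatory synapses, to its agonists. The cultures came from wild-type SD rats and were on day 18 in vitro, and polyadenylated RNA was sequenced from 4 PAM and 4 vehicle libraries. Neither the identity and dose of the modulator nor the treatment time was given in the sources used here, nor whether the 4 libraries of a group came from separate cultures. Measures of spread and p-values then cover the spread between these libraries, which may be technical.

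IGF1 and IGF2 are secreted peptides that act through the receptor tyrosine kinase IGF1R, which signals through insulin receptor substrates to AKT, mTOR, FoxO factors and ERK. In extracellular fluid most of the ligand is held by IGF-binding proteins, which set how much of it reaches the receptor and are themselves cut by secreted proteases. In the brain IGF signalling is known for its part in neuronal survival, growth and synaptic plasticity, and the binding proteins come from neurons, glia and vascular or meningeal cells.

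Libraries held 2960406 to 4389430 gene counts. Levels are given in CPM (counts scaled to a common library total) on library sizes scaled by TMM. On library totals without that scaling, 3 counts, the most that a count of 0 allows, correspond to 0.683 to 1.01 CPM, covering counting error only. Neuronal and glial markers were both present. The excitatory neuron markers summed to 916 to 1051 CPM in PAM libraries and 1409 to 1658 CPM in vehicle libraries, and 4 of 9 tested were lower in PAM libraries. The astrocyte markers summed to 9225 to 11255 CPM in PAM libraries and 6343 to 6652 CPM in vehicle libraries, with 5 of 10 higher in PAM libraries. In the fit described below, 9% of all tested genes were called higher and 9.89% lower. In such bulk samples fewer cells of a type and less RNA per cell cannot be told apart. PAM 3 and PAM 4 differed from the other libraries in their trend of level with exonic length: the slope of log2 CPM per doubling of length was -0.09 in PAM 3 and -0.13 in PAM 4, against 0.01 to 0.06 in the other 6 libraries. Results for which leaving these libraries out turned a direction or a call are marked where they are given.

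Of the 10 genes, 9 passed the filter on low counts. In edgeR's quasi-likelihood fit over all 11740 tested genes (Benjamini-Hochberg adjusted p under 0.05), 4 of these 9 were past the threshold, against 18.9% of all tested genes. Higher in PAM libraries were 3, Igfbpl1, Igfbp7 and Igfbp3, where 9% of all tested genes were called higher. Igfbp4 was lower, a direction called for 9.89% of all tested genes. The same 4 genes had PAM and vehicle values that did not overlap, which held for 22.3% of all tested genes. The genes were picked from this comparison, so nothing is read from these shares. The ligands, the receptor and the most abundant binding proteins, Igfbp2 and Igfbp5, did not pass.

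**Figure D1:**
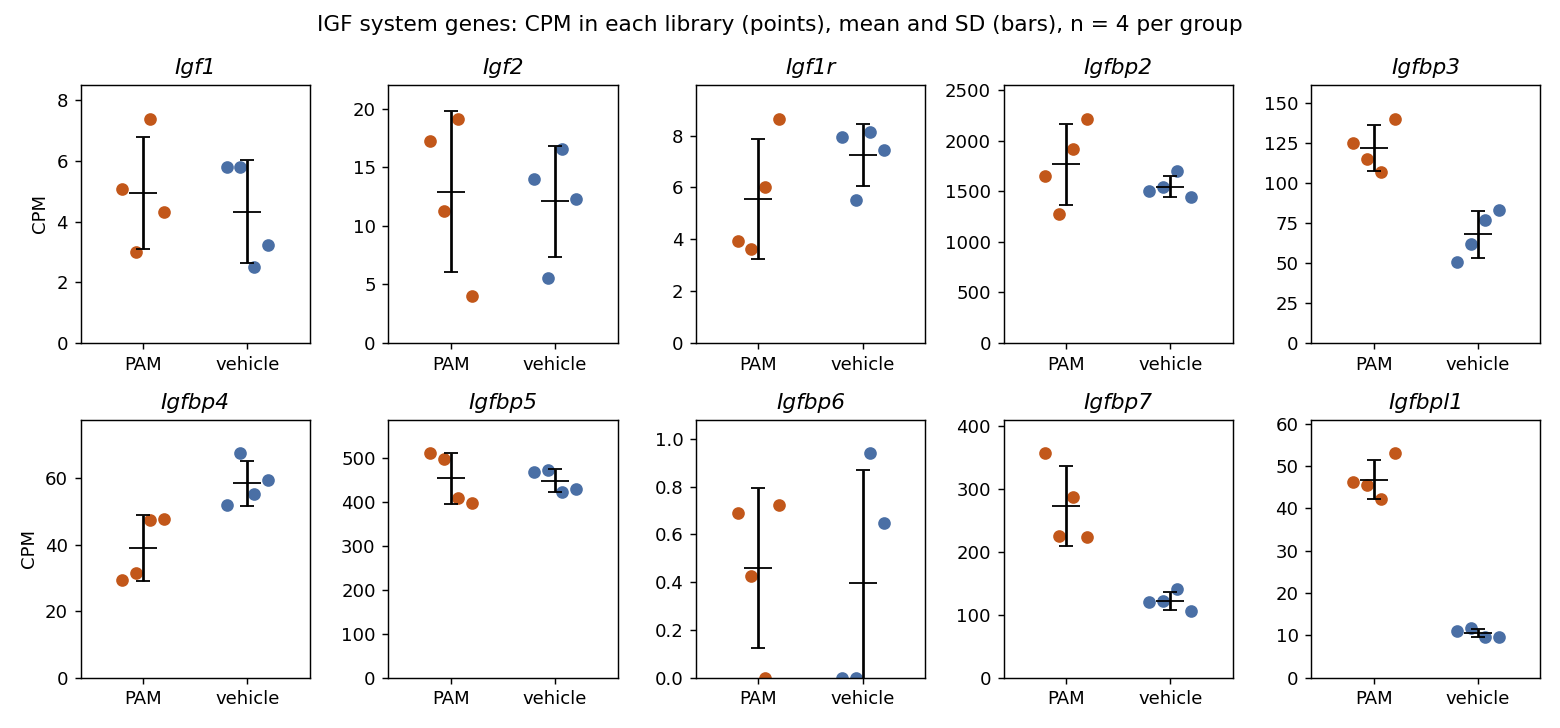
Level of each IGF system gene in CPM (vertical axes, each from 0) in the PAM libraries (left) and vehicle libraries (right) of each panel; points are libraries and bars the mean and SD of 4 libraries. Igfbp3, Igfbp7 and Igfbpl1 are higher in every PAM library than in any vehicle library, Igfbp4 is lower in every PAM library, and the other genes overlap.

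Both ligands were scarce. Igf1 (ENSRNOG00000004517; Rnor_6.0, chromosome 7, 28412198 to 28486609, plus strand, 6 exon blocks) encodes the ligand that mediates much of growth hormone action and is also made locally in brain. It measured 5.07, 2.99, 7.39 and 4.33 CPM in PAM 1 to 4, against 5.79, 5.78, 2.50 and 3.24 CPM in vehicle 1 to 4. These values rest on 12 to 27 counts in PAM libraries and 8 to 21 in vehicle libraries, and the groups overlapped almost wholly. The log2 fold change was 0.18 ± 0.44 (SE), with a 95% interval of -0.68 to 1.03, and no difference was detectable at this depth. Its sign turned without PAM 3 (-0.081), without vehicle 3 (-0.011) and without PAM 3 and PAM 4 (-0.10).

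Igf2 (ENSRNOG00000020369; chromosome 1, 215828102 to 215846911, minus strand, 8 exon blocks) encodes the ligand best known as an imprinted fetal growth factor. Its level was 17.3, 11.3, 19.2 and 3.97 CPM in PAM 1 to 4, against 14.0, 5.51, 16.6 and 12.3 CPM in vehicle 1 to 4. PAM 4 and vehicle 2 were the low libraries of their groups. Igf2 varied more than genes of like level: its coefficient of variation was 53.0% in PAM and 39.2% in vehicle libraries, where the median of 2304 genes within 1.5-fold of its level was 26.8% in PAM and 23.0% in vehicle libraries. The log2 fold change was 0.12 ± 0.39 (95% interval -0.64 to 0.88), and its sign turned when PAM 1, PAM 3 or vehicle 2 was left out (-0.12 at the lowest). Igf2 shares 258 exonic bases with an unnamed gene on the same strand that had 0 counts in all libraries.

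Igf1r (ENSRNOG00000014187; chromosome 1, 128924966 to 129206516, plus strand, 21 exon blocks), the receptor for both ligands, was also near the bottom of the tested range, with 86.7% of tested genes above it. It measured 3.92, 3.62, 6.02 and 8.65 CPM in PAM 1 to 4, against 7.93, 5.51, 8.14 and 7.44 CPM in vehicle 1 to 4. PAM 1 and PAM 2 lay below all vehicle libraries and PAM 4 above all of them. The difference was -0.41 ± 0.38 on the log2 scale (95% interval -1.15 to 0.33). Without PAM 3 and PAM 4 it was -0.92, still not past the threshold.

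Igfbp2 dominated the family. Its protein is a secreted binding protein abundant in brain and cerebrospinal fluid, and the gene (ENSRNOG00000016957) lies on chromosome 9, 80118029 to 80144789, plus strand, in 4 exon blocks. It ranked 42nd of the 11740 tested genes, at 1655, 1273, 1922 and 2219 CPM in PAM 1 to 4, against 1501, 1543, 1696 and 1444 CPM in vehicle 1 to 4. PAM 2 was the lowest and PAM 4 the highest of all 8 libraries, with the vehicle libraries between PAM 2 and PAM 3. The log2 fold change was 0.19 ± 0.13 (95% interval -0.07 to 0.45). Leaving out PAM 2 brought it to 0.32 and past the threshold, and leaving out PAM 3 and PAM 4 turned it to -0.07. With each library's trend with exonic length removed it was 0.08, not past the threshold.

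Igfbp5 (ENSRNOG00000017206; chromosome 9, 80150211 to 80167033, minus strand, 4 exon blocks) encodes a binding protein that also attaches to heparin and the extracellular matrix. Its 3' end lies 5421 bases from that of Igfbp2, on the opposite strand. It measured 511, 497, 410 and 397 CPM in PAM 1 to 4, against 469, 473, 423 and 429 CPM in vehicle 1 to 4. PAM 1 and PAM 2 lay above and PAM 3 and PAM 4 below the whole vehicle range, and the means differed by 0.02 ± 0.11 on the log2 scale (95% interval -0.19 to 0.23). With each library's trend with exonic length removed, PAM 3 and PAM 4 were at 443 and 459 CPM, inside the vehicle range of 409 to 463 CPM. The log2 difference was then 0.11, not past the threshold.

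PAM 3 and PAM 4 had more Igfbp2 and less Igfbp5 than PAM 1 and PAM 2. The ratio of Igfbp2 to Igfbp5 CPM was 3.24, 2.56, 4.69 and 5.59 in PAM 1 to 4, against 3.20, 3.26, 4.01 and 3.37 in vehicle 1 to 4. PAM 3 and PAM 4 had the highest ratios, and these are the libraries in which level fell with exonic length; Igfbp2 has 1280 exonic bases and Igfbp5 has 5866. With each library's length trend removed the ratio was 3.20, 2.79, 4.05 and 4.53 in PAM 1 to 4, against 3.57, 3.43, 4.13 and 3.70 in vehicle 1 to 4. Only PAM 4 then stood above the vehicle range, and PAM 1 and PAM 2 stood below it.

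Igfbp6 (ENSRNOG00000010977; chromosome 7, 143749221 to 143754054, plus strand, 4 exon blocks), whose protein prefers IGF2 over IGF1, was the member that failed the low-count filter. It had 3, 2, 0 and 2 counts in PAM 1 to 4, against 0, 0, 3 and 2 counts in vehicle 1 to 4. No library was above the floor of 3 counts, so no fold change is given.

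Igfbpl1 showed the largest difference of the 10 genes. The gene (ENSRNOG00000011320; chromosome 5, 61395408 to 61410812, minus strand, 5 exon blocks) encodes a secreted protein with an IGF-binding protein-like domain. It measured 46.3, 45.6, 42.2 and 53.0 CPM in PAM 1 to 4, against 11.0, 11.8, 9.71 and 9.71 CPM in vehicle 1 to 4. All PAM libraries were far above all vehicle libraries. The coefficients of variation were 9.68% in PAM and 9.88% in vehicle libraries, on 147 to 214 counts in PAM and 30 to 43 counts in vehicle libraries. At the vehicle counts, counting error alone is expected to give a larger value, so nothing is read from this closeness. The medians were 19.6% in PAM and 15.2% in vehicle libraries over 2750 genes of like mean over all libraries. That mean lies between the levels of the groups, so these genes match Igfbpl1 in neither group. The mean was 46.8 ± 4.53 CPM in PAM and 10.6 ± 1.04 CPM in vehicle libraries (SD, n = 4 each), a 4.40-fold difference (log2 2.14 ± 0.18).

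Igfbp7 (ENSRNOG00000002050; chromosome 14, 33010300 to 33070190, plus strand, 5 exon blocks) encodes a matrix-associated protein that binds IGFs with low affinity and is known from vascular and perivascular cells. It measured 357, 225, 287 and 223 CPM in PAM 1 to 4, against 121, 122, 141 and 106 CPM in vehicle 1 to 4. PAM 1 was the highest and the groups did not overlap, although the spread among PAM libraries was wide (coefficient of variation 23.2% in PAM and 11.6% in vehicle libraries). The mean was 273 ± 63.4 CPM in PAM and 122 ± 14.2 CPM in vehicle libraries (SD, n = 4 each), 2.23-fold (log2 1.16 ± 0.14). With the length trend removed the log2 difference was 1.03. Of its exonic bases 113 (10.3%) are shared with Polr2b, an RNA polymerase II subunit gene on the opposite strand, and whether counting used strand was not stated in the sources used here. Polr2b itself had 311, 360, 193 and 141 counts in PAM 1 to 4, against 259, 239, 206 and 223 in vehicle 1 to 4, fewer than Igfbp7 in every PAM and every vehicle library.

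Igfbp3 (ENSRNOG00000061910; chromosome 14, 87457647 to 87465374, minus strand, 5 exon blocks) encodes the main IGF carrier of plasma. It measured 125, 115, 107 and 140 CPM in PAM 1 to 4, against 50.6, 61.7, 77.0 and 82.8 CPM in vehicle 1 to 4. Every PAM library was above every vehicle library. The vehicle libraries spread more than genes of like mean level over all libraries (21.5% against a median of 9.13%). The mean was 122 ± 14.4 CPM in PAM and 68.0 ± 14.6 CPM in vehicle libraries (SD, n = 4 each), 1.79-fold (log2 0.84 ± 0.15).

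Igfbp4 (ENSRNOG00000010635; chromosome 10, 86950557 to 86962578, plus strand, 4 exon blocks), which encodes a binding protein known mainly as an inhibitor of IGF action until it is cut by the protease PAPP-A, was the one member past the threshold in the lower direction. It measured 29.5, 31.6, 47.4 and 47.6 CPM in PAM 1 to 4, against 51.8, 67.4, 55.1 and 59.5 CPM in vehicle 1 to 4. PAM 1 and PAM 2 were clearly lower than PAM 3 and PAM 4, which came close to vehicle 1. The mean was 39.0 ± 9.82 CPM in PAM and 58.5 ± 6.76 CPM in vehicle libraries (SD, n = 4 each), 0.661-fold (log2 -0.60 ± 0.17). The gene was no longer past the threshold without PAM 1 (-0.48), without vehicle 2 (-0.52) or without vehicle 4 (-0.59), whereas without PAM 3 and PAM 4 the log2 difference was -0.92.

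**Figure D2:**
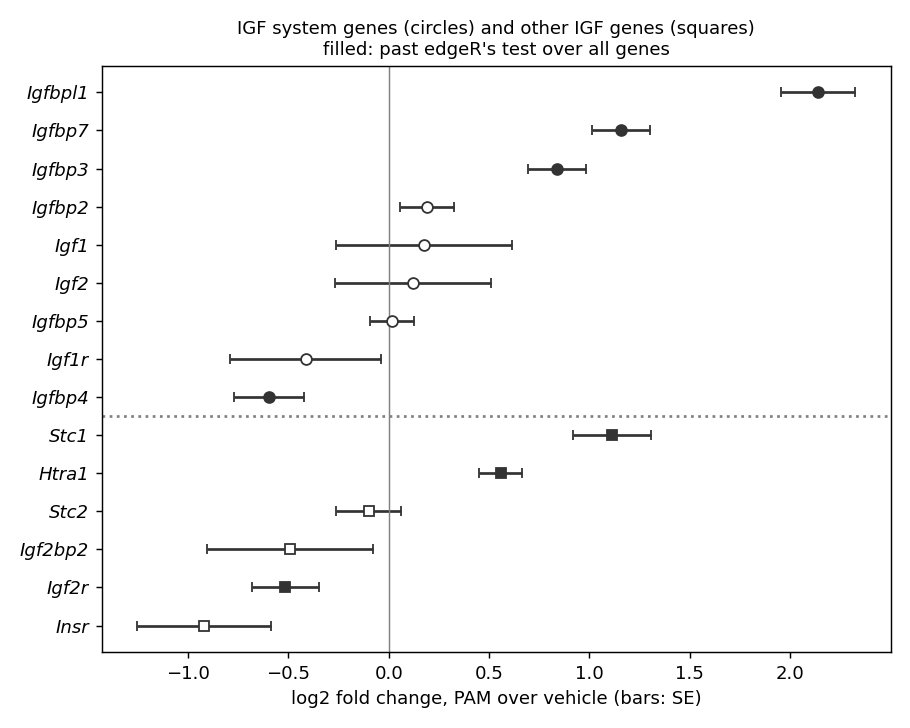
Log2 fold change, PAM over vehicle (horizontal axis), with its SE (bars) for the 9 tested IGF system genes (circles) and 6 tested partner genes of the IGF system (squares); filled symbols are past edgeR's threshold over all genes. Igfbpl1 at 2.14, Igfbp7 at 1.16 and Igfbp3 at 0.84 stand to the right of 0 and Igfbp4 at -0.60 to the left.

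The authors' deposited table gave log2 fold changes of 2.14 for Igfbpl1, 1.16 for Igfbp7, 0.84 for Igfbp3 and -0.60 for Igfbp4. For the members that did not pass here, the authors' deposited table listed 0.19 for Igfbp2, 0.01 for Igfbp5, 0.18 for Igf1, 0.11 for Igf2 and -0.42 for Igf1r.

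The start regions of the 4 genes past the threshold are printed, each as 250 bases before and 50 after the annotated start (RefSeq, GRCr8, 300 bases, 5' to 3' on the gene's strand). Capitals mark matches, on either strand, to any of 8 motifs: the TATA box with the letters TATAAA, the similar box with the letters TATATA (called TATA-like here), the GC box with the letters GGGCGG, the CCAAT box, the AP-1 site with the letters TGANTCA, the core of the cyclic AMP response element with the letters TGACG, the FoxO site with the letters GTAAACA, and the E-box with the letters CACGTG. No overlap between matches of different motifs occurs in the printed windows.
Igfbpl1, chr5:64887412-64887711, minus strand: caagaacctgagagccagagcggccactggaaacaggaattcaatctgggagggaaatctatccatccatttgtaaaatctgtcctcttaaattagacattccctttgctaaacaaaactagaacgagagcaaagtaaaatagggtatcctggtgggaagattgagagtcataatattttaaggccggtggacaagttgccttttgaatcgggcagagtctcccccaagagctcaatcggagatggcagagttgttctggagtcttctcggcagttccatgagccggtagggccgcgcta
Igfbp7, chr14:31091486-31091785, plus strand: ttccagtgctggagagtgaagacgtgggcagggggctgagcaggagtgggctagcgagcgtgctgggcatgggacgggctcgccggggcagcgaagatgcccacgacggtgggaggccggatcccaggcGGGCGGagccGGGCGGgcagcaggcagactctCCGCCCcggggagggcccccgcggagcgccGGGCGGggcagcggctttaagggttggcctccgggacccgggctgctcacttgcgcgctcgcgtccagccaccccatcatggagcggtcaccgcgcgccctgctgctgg
Igfbp3, chr14:86277895-86278194, minus strand: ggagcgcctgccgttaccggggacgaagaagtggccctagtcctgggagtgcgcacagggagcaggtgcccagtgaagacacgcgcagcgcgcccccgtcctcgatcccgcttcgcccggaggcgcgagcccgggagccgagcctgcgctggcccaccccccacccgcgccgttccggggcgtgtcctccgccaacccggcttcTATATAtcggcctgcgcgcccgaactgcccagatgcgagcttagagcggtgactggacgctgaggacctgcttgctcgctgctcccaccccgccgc
Igfbp4, chr10:84491221-84491520, plus strand: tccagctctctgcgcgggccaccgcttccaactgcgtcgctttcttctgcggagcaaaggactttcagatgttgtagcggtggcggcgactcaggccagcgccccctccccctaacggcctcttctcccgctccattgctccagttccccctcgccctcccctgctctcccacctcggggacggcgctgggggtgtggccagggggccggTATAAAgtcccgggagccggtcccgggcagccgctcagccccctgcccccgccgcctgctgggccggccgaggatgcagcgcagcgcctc
The Igfbpl1 window held none of the 8 motifs and had a GC content of 47.0%, below the median of 51.7% over 33469 rat windows. The Igfbp7 window held 4 GC boxes at a GC content of 74.3%; 33.1% of all windows hold at least 1. The Igfbp3 window held 1 TATA-like box (6.15% of all windows have one) at a GC content of 71.7%. The Igfbp4 window held 1 TATA box (14.2% of all windows) at a GC content of 71.0%. The Igfbp7, Igfbp3 and Igfbp4 windows were thus alike in their high GC content. None of the 4 windows held a CCAAT box (37.5% of all windows), an AP-1 match (7.33%), a cyclic AMP response element core (21.2%), a FoxO match (3.78%) or an E-box (6.42%). No motif was shared between the 3 windows of genes higher in PAM libraries. These matches describe letters in the windows and say nothing about factors bound there.

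Set per kilobase of exonic length, the members spanned over 3 orders of magnitude if Igfbp6 is counted. Igfbp6 averaged 0.43 CPM per kilobase in PAM and 0.37 in vehicle libraries, with no library above 3 counts. Igfbp2 averaged 1381 ± 314 CPM per kilobase in PAM and 1208 ± 84.2 in vehicle libraries (SD, n = 4 each). Igfbp7 followed with 248 ± 57.5 in PAM and 111 ± 12.9 in vehicle libraries, then Igfbp5 with 77.3 ± 10.01 in PAM and 76.5 ± 4.45 in vehicle libraries, all in CPM per kilobase. These first places did not overlap between neighbouring genes in either group. Igfbp3 averaged 50.6 ± 5.99 CPM per kilobase in PAM and 28.3 ± 6.09 in vehicle libraries.

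The places of Igfbp4 and Igfbpl1 differed between the groups. Igfbpl1 averaged 35.2 ± 3.41 CPM per kilobase in PAM and 7.95 ± 0.785 in vehicle libraries, and Igfbp4 averaged 17.9 ± 4.51 in PAM and 26.9 ± 3.11 in vehicle libraries. Igfbpl1 stood above Igfbp4 in all 4 PAM libraries and below it in all 4 vehicle libraries, and Igfbp3 and Igfbp4 overlapped in vehicle libraries only. At the low end, Igf1 averaged 2.57 ± 0.959 CPM per kilobase in PAM and 2.25 ± 0.888 in vehicle libraries. Igf2 averaged 2.29 ± 1.21 in PAM and 2.15 ± 0.840 in vehicle libraries, and Igf1r 1.35 ± 0.567 in PAM and 1.77 ± 0.293 in vehicle libraries. The levels of the ligands and the receptor overlapped in both groups and their order could not be told.

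**Figure D3:**
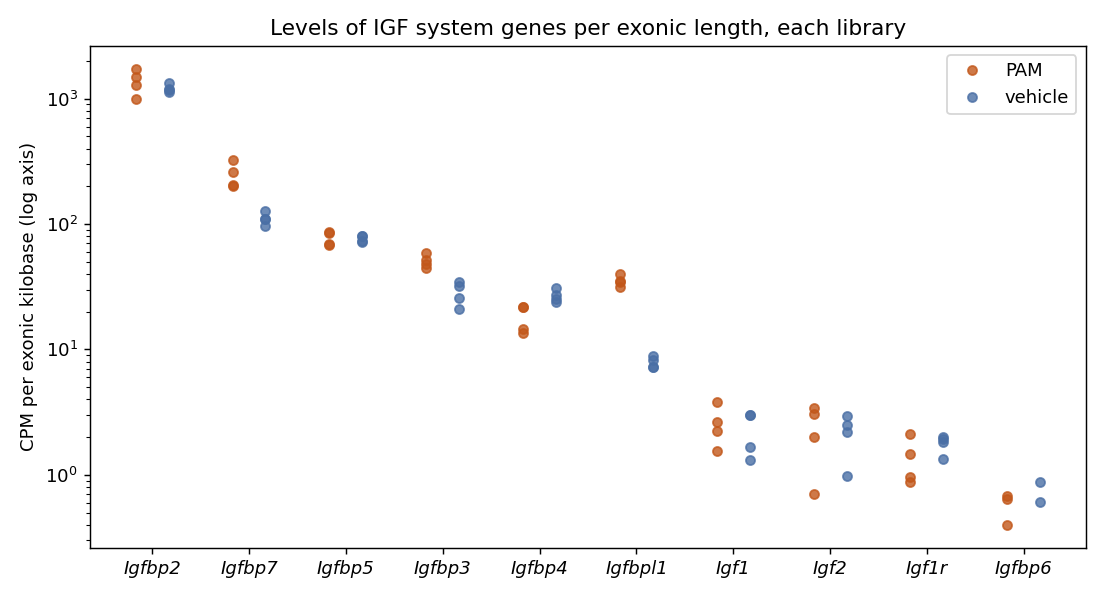
Level per exonic kilobase (CPM per kilobase, log axis) of each IGF system gene in each PAM library (left of each pair) and vehicle library (right), in the order of the vehicle means. Igfbpl1 lies above Igfbp4 in PAM libraries and below it in vehicle libraries; libraries with 0 counts of Igfbp6 (PAM 3, vehicle 1 and vehicle 2) cannot be drawn on a log axis.

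Summed over Igfbp2 to Igfbp7 and Igfbpl1, the binding protein transcripts made up 2702 ± 374 CPM in PAM libraries, with a range of 2188 to 3080, and 2255 ± 116 CPM in vehicle libraries, with a range of 2132 to 2403 (SD, n = 4 each). The ranges overlapped through PAM 2. Igf1 and Igf2 together amounted to 4.86 ± 1.98 CPM per kilobase in PAM and 4.39 ± 0.751 in vehicle libraries, against 1810 ± 315 in PAM and 1459 ± 95.8 in vehicle libraries for the summed binding proteins on the same scale.

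The make-up of that sum differed between the groups in its smaller components. Igfbp7 made up 10.2 ± 2.39% of the summed CPM in PAM and 5.41 ± 0.367% in vehicle libraries, and Igfbpl1 1.75 ± 0.245% in PAM and 0.469 ± 0.0509% in vehicle libraries (SD, n = 4 each). Igfbp4 made up 1.44 ± 0.257% in PAM and 2.60 ± 0.328% in vehicle libraries. The ranges of these shares did not overlap. For Igfbp3 they did, at 3.79 to 5.25% in PAM and 2.30 to 3.89% in vehicle libraries. Igfbp2 remained the main component, at 64.8 ± 6.44% in PAM and 68.5 ± 1.38% in vehicle libraries, and Igfbp5 made up 17.2 ± 4.42% in PAM and 19.9 ± 1.62% in vehicle libraries.

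**Figure D4:**
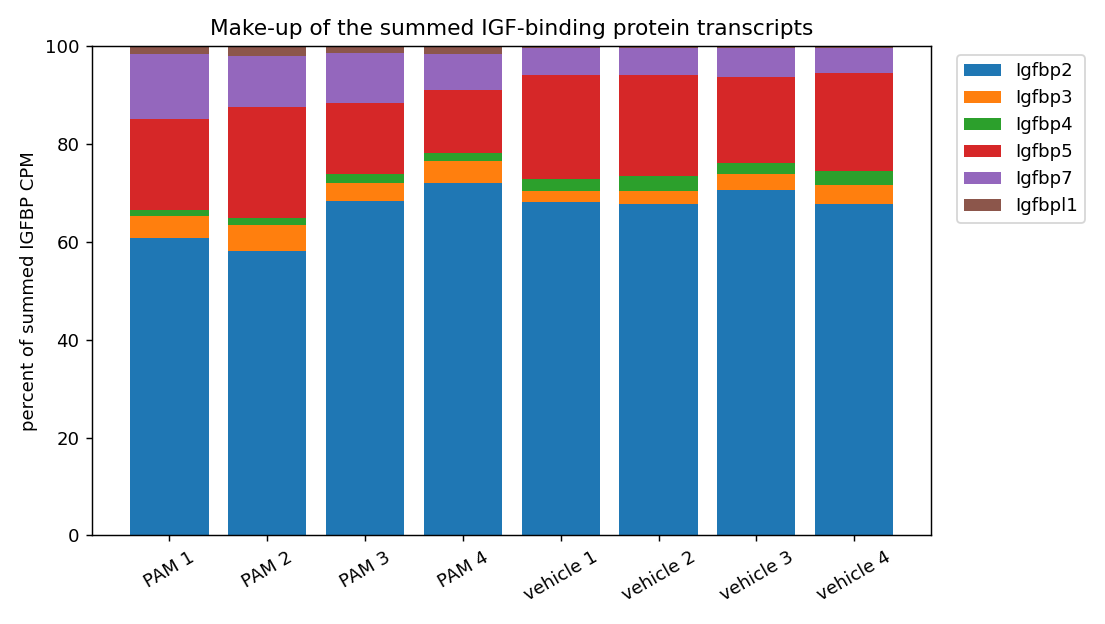
Share of each binding protein gene in the summed binding protein CPM (vertical axis, percent) of each library, PAM 1 to 4 on the left and vehicle 1 to 4 on the right; Igfbp6, at most 0.0391%, is not drawn. The Igfbp7 segment is 7.24 to 13.1% in PAM libraries and 4.96 to 5.85% in vehicle libraries.

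Markers of some cell types in which binding proteins are known moved with the same comparison, and their part in the results was not tested. Beside the counts below, 9% of all tested genes were called higher and 9.89% lower. Of the ependymal and choroid plexus markers 5 of 5 tested were higher (12 listed, 7 matched), namely Folr1, Tekt1, Ccdc153, Tmem212 and Rsph1. The matched markers summed to 143 to 233 CPM in PAM and 45.7 to 68.0 CPM in vehicle libraries. Ttr and Clic6 failed the low-count filter, and Foxj1, Kl, Otx2, Kcnj13 and Sostdc1 had no matching symbol. Of the meningeal fibroblast markers 3 of 5 tested were higher (12 listed, 9 matched), namely Col1a1, Col3a1 and Fbln1, with overlapping groups for Col3a1. Dcn (log2 0.04) and Lum (log2 -0.38) did not pass. Crabp2, Slc6a13, Aldh1a2 and Islr failed the low-count filter. The list summed to 213 to 355 CPM in PAM and 153 to 209 CPM in vehicle libraries. The 1 tested endothelial marker, Kdr, was higher (10 listed, 3 matched), with means of 16.6 CPM in PAM and 8.69 CPM in vehicle libraries. The list summed to 13.8 to 24.9 CPM in PAM and 8.45 to 14.0 CPM in vehicle libraries, mostly from Kdr. Vwf and Emcn failed the low-count filter, and Pecam1, Cldn5, Cdh5, Tek, Flt1, Esam and Slco1a4 had no matching symbol. None of 5 tested mural cell markers passed (249 to 381 CPM in PAM, 306 to 456 CPM in vehicle libraries) and none of 4 microglia markers (80.8 to 93.8 CPM in PAM, 81.8 to 115 CPM in vehicle libraries). Oligodendrocyte lineage markers were higher for 5 and lower for 1 of 9, at 1301 to 1704 CPM in PAM and 899 to 1025 CPM in vehicle libraries. Of 9 inhibitory neuron markers 1 was higher and 3 were lower, and of 6 immature neuron markers 2 were lower. No matched marker was at 0 in all libraries.

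The genes whose pattern over the 8 libraries was most like each member past the threshold were taken by the smallest root mean square (RMS) difference of centred log2 CPM among 11317 genes with a symbol. For Igfbpl1 they were Ccdc113 (RMS 0.24, log2 fold change 2.52), Fam216b (0.24, 2.49) and Cfap126 (0.25, 1.81). For Igfbp7 they included Mpv17 (RMS 0.14, log2 fold change 1.10) and Cpt1a (0.14, 1.11). For Igfbp3 they were Gabrd (RMS 0.11, log2 fold change 0.69), Csrp2 (0.13, 0.79) and Fanci (0.14, 0.84). For Igfbp4 they were Carmil3 (RMS 0.07, log2 fold change -0.65), Lrrc24 (0.08, -0.72) and Creld1 (0.09, -0.55). Among the members themselves, Igf1r and Igfbp4 were the closest pair (RMS 0.30) and Igfbp4 and Igfbpl1 the farthest (1.37). No member was among the nearest genes of another.

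Other genes of the IGF system formed a list of 15: receptors and ligands of the insulin family, further IGF carriers, secreted proteases and their inhibitors, and the intracellular RNA-binding proteins named for the Igf2 messenger. This list and the IGF1R signalling and FoxO target lists below were also chosen with earlier results of these data known. Adjusted p-values of their genes are rows of the fit over all genes, given as a description and not as independent support. Of the partner genes 8 matched and 6 were tested. Of the 6, 2 rose, 1 fell and 3 did not pass, with a median log2 fold change of -0.30, beside 0.02 over all tested genes. Over all tested genes 9% were called higher and 9.89% lower, and nothing is read from a count of so few genes. Stc1, a secreted stanniocalcin that inhibits PAPP-A proteases, rose: it measured 35.5, 29.9, 30.7 and 35.7 CPM in PAM 1 to 4, against 11.9, 14.3, 18.5 and 16.2 CPM in vehicle 1 to 4. The groups did not overlap, and the log2 fold change was 1.11 ± 0.20 (edgeR adjusted p = 0.000555). Stc2, the other stanniocalcin, did not pass, at 30.2 ± 2.22 CPM in PAM and 32.3 ± 2.34 CPM in vehicle libraries (SD, n = 4 each; edgeR adjusted p = 0.728). Htra1, a secreted serine protease that cuts binding proteins, rose, with 220, 192, 225 and 215 CPM in PAM 1 to 4, against 129, 143, 155 and 151 CPM in vehicle 1 to 4. Its groups did not overlap either (log2 0.56 ± 0.11, edgeR adjusted p = 0.00103).

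Igf2r, the mannose 6-phosphate receptor that clears IGF2, was past the threshold in the lower direction. It measured 62.5, 61.0, 48.7 and 44.3 CPM in PAM 1 to 4, against 102, 82.3, 64.2 and 61.8 CPM in vehicle 1 to 4. PAM 1 overlapped with vehicle 4, and the log2 fold change was -0.51 ± 0.17 (edgeR adjusted p = 0.0376). The call was lost with the length trend removed (-0.37), under limma-voom and upper-quartile scaling, without PAM 3 and PAM 4 (-0.32) and without any one of PAM 3, PAM 4, vehicle 1 or vehicle 2. Insr, the insulin receptor, averaged 5.15 ± 1.36 CPM in PAM and 9.91 ± 2.10 CPM in vehicle libraries (SD, n = 4 each), a log2 difference of -0.92 ± 0.33 that was not past the threshold in edgeR (adjusted p = 0.0607) and was in DESeq2 (adjusted p = 0.043). Igf2bp2, an RNA-binding protein of the Igf2 messenger, did not pass (log2 -0.49 ± 0.41, edgeR adjusted p = 0.448). Igf2bp3 and Pappa2 failed the low-count filter.

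Of 45 tested genes of the signalling path below IGF1R (48 listed), 1 rose, 7 fell and 37 did not pass, with a median log2 fold change of -0.13. The 8 calls of 45 are close to the 18.9% called over all tested genes, so the total says nothing particular to this path. By direction, 9% of all tested genes were called higher and 9.89% lower. Whether the split between directions in this list differs from that was not tested. Irs2, an adaptor of the insulin and IGF1 receptors, rose to 137 ± 12.4 CPM in PAM libraries, against 98.6 ± 13.0 CPM in vehicle libraries (SD, n = 4 each; log2 0.47 ± 0.12, edgeR adjusted p = 0.0102). Irs1, its relative, was at 3.07 ± 0.684 CPM in PAM and 5.31 ± 2.64 CPM in vehicle libraries and did not pass. Grb14, an adaptor that inhibits the insulin receptor, fell to 13.1 ± 0.833 CPM in PAM libraries, against 23.1 ± 1.96 CPM in vehicle libraries (log2 -0.81 ± 0.20, edgeR adjusted p = 0.00876). Socs2, a feedback inhibitor of growth hormone signalling, had a log2 fold change of -1.15 ± 0.31. The kinase gene Mtor and Rptor, which encodes a subunit of its complex, fell by 0.50 and 0.56 on the log2 scale. Gsk3a, a kinase that AKT inhibits, fell to 227 ± 35.7 CPM in PAM libraries, against 342 ± 27.1 CPM in vehicle libraries (log2 -0.59 ± 0.12, edgeR adjusted p = 0.00152). In the ERK branch, the kinase genes Map2k1 and Mapk3 fell by 0.59 and 0.34 on the log2 scale.

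Some of these calls were not kept when a library was left out or the length trend was removed. Socs2 was not past the threshold without vehicle 4, Mtor without PAM 3 or vehicle 1 or with the length trend removed, and Mapk3 without any one of PAM 1, PAM 2 or the 4 vehicle libraries. Akt1, a central kinase of the path, was at 129 ± 9.45 CPM in PAM and 157 ± 6.28 CPM in vehicle libraries (SD, n = 4 each) and did not pass (log2 -0.28 ± 0.10, edgeR adjusted p = 0.0693). Foxo3, a transcription factor that AKT restrains, had a log2 fold change of -0.96 ± 0.36 and did not pass (edgeR adjusted p = 0.0696), although it did without vehicle 2 (log2 -1.17, edgeR adjusted p = 0.038). Foxo1 failed the low-count filter. Without PAM 3 and PAM 4 the count of calls in this list was 18 in place of 8, with 4 higher and 14 lower, while that over all genes was 2900 in place of 2218, with 1374 higher and 1526 lower.

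Among 12 tested genes known as targets of FoxO factors (15 listed), 2 rose, 2 fell and 8 did not pass, with a median log2 fold change of 0.02. The shares over all tested genes were 9% higher and 9.89% lower, and nothing is read from this small count. Bcl2l11, a pro-apoptotic BH3 gene, rose (log2 1.47 ± 0.42, edgeR adjusted p = 0.0195) at 13.8, 25.8, 19.7 and 7.93 CPM in PAM 1 to 4, against 2.13, 11.0, 4.07 and 7.12 CPM in vehicle 1 to 4. PAM 4 was below vehicle 2, so the groups overlapped. Txnip, a thioredoxin inhibitor, rose by 0.48 ± 0.16 on the log2 scale (edgeR adjusted p = 0.0415). Ccng2, a cyclin of growth arrest, fell by 0.87 and Ddit4, an mTOR inhibitor, by 0.51 on the log2 scale; Ddit4 measured 382, 377, 408 and 335 CPM in PAM 1 to 4, against 524, 548, 538 and 536 CPM in vehicle 1 to 4. Ccng2 and Ddit4 stayed past the threshold with each library left out, whereas Bcl2l11 lost its call without PAM 2, PAM 3, vehicle 1 or vehicle 3. Txnip lost its call under limma-voom and without any one of PAM 1, PAM 2 or the 4 vehicle libraries. The count of calls in this list was 2 without PAM 2, without vehicle 1 or without vehicle 3.

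**Figure D5:**
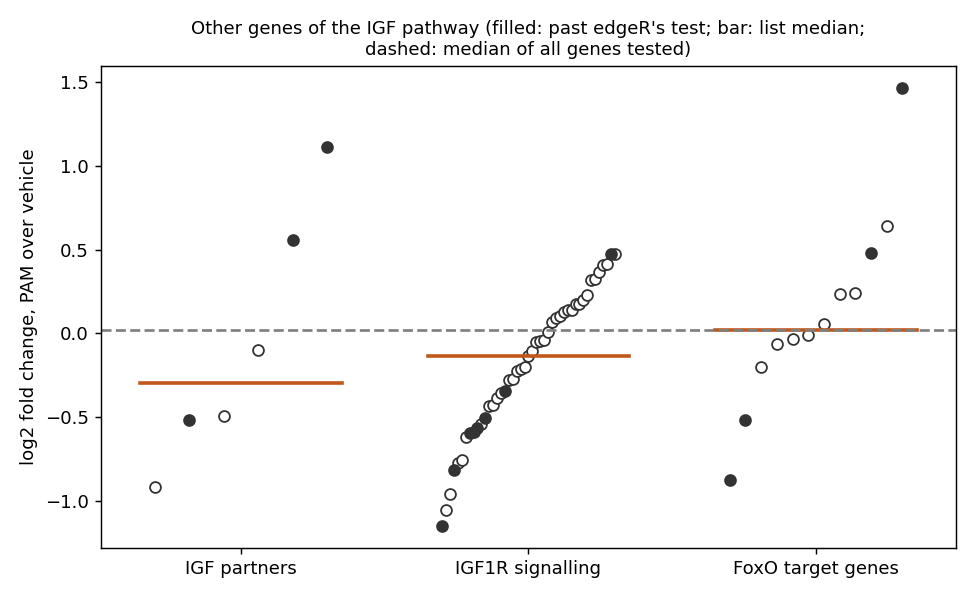
Log2 fold change, PAM over vehicle (vertical axis), of each tested gene of the IGF partner, IGF1R signalling and FoxO target lists (points, filled where past edgeR's threshold over all genes), with the list median (bar) and the median of all tested genes (dashed line, 0.02). The list medians are -0.30, -0.13 and 0.02.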

How the data were processed

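Per the labels, polyadenylated RNA was sequenced in 8 libraries on an Illumina instrument; per the submitters' processing notes, STAR, featureCounts, DESeq2, DESeq and the build Rnor_6.0 were used, with no version given. The authors deposited whole-number counts per Ensembl gene and library, per the file headers with exon coordinates and exonic lengths. The annotation release, strandedness and handling of multi-mapped reads were not given in the sources used here. The authors' deposited table of their own comparison holds group means (signal), log2 fold changes and p-values, raw and adjusted; symbols came from it (13739 identifiers). Members and gene lists were chosen with earlier results of these data known.

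The fit used edgeR 4.0.16 (R 4.3.3, limma 3.58.1) on genes passing filterByExpr (11740) with TMM scaling, a robust quasi-likelihood F test, no covariate and a Benjamini-Hochberg adjusted p under 0.05. SE is the log2 fold change over the root of F; 95% intervals are 1.96 SE; log2 CPM for pattern distances used a prior count of 2. Libraries held 2960406 to 4389430 counts, and counts of replicate pairs differed beyond sampling noise (chi-square per degree of freedom 2.84 to 16.1). Named were all members, all tested IGF partners, up to 8 genes past the threshold in each other list plus Irs1, Irs2, Akt1, Foxo1 and Foxo3, and 3 nearest genes per member past the threshold; Polr2b was named after its counts were seen, and 1 nearest gene is not reported here by name. Entries without a matching symbol were not used. Promoter windows came from RefSeq (GRCr8) by symbol and were not placed on Rnor_6.0. Alternatives were scaling by upper quartiles or RLE, limma-voom, DESeq2 1.42.0, a minimum mean of 1 CPM or no low-count filter, the replicate number as a block, removal of each library's length trend (loess, span 0.5), each library left out, and PAM 3 and PAM 4 left out together. The procedure was tested on simulated counts.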

Additional observations from a re-analysis of the deposited data

Results flagged for a closer look

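Among the values per group of 4 libraries of the genes named from the member and pathway lists, 1 of 62 groups held a library that stood apart by Dixon's criterion, which chance meets in about 1 of 20 groups. This was Stc2 in PAM 2, at 26.9 CPM, against 31.0 to 31.5 CPM in the other PAM libraries.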

How the results depend on the processing

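The direction and side of the threshold of Igfbp3, Igfbp7 and Igfbpl1 held under each alternative run, with each library left out in turn (log2 0.72 to 0.94 for Igfbp3, 1.00 to 1.24 for Igfbp7 and 2.08 to 2.20 for Igfbpl1) and without both PAM 3 and PAM 4. Leaving out 1 library at a time gave 1527 to 2408 calls over all genes (2218 with all libraries), 3 to 5 among the members, 2 to 3 among IGF partners, 6 to 11 in IGF1R signalling and 2 to 5 among FoxO targets. Without both PAM 3 and PAM 4, 18 IGF1R signalling genes and 2900 genes in all were called, and the log2 fold changes of Igf1 (-0.10) and Igfbp2 (-0.067) turned sign, neither being past the threshold; the cause was not tested. Signs also turned with single libraries left out for Igf1 (-0.081 to 0.37), Igf2 (-0.12 to 0.40) and Igfbp5 (-0.044 to 0.075), none of them past the threshold. With the replicate block 2064 genes and 4 members were called. Deviations of same-numbered PAM and vehicle libraries from their group means correlated at 0.05, -0.05, 0.07 and -0.06. Such values do not show a pairing by number and cannot exclude one, since no label tells which libraries share a culture. Counts of 8 to 27 per library limit Igf1, and Igfbp6 was above the floor of 3 counts in no library.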
